A study of Mus musculus with 2 samples.

Results

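The genes of MHC class II presentation were compared between CD5-positive gamma delta T cells of LAT3YF mice and of wildtype mice. The members were 10 genes chosen by name, H2-Aa, H2-Ab1, H2-Eb1, H2-DMa, H2-DMb1, H2-DMb2, H2-Oa, H2-Ob, Cd74 and Ciita, and 9 of them had a probe that the platform annotation pairs with a single gene, of 4331 genes with such a probe. Ciita was not analysed here. The cells of both groups came from spleen and were sorted on a FACSDiva after selection with anti-CD5 beads, and their total RNA was put on a pair of 2-colour arrays on which the dyes were reversed. LAT is an adaptor of T cell receptor signalling, and 3YF stands for the exchange of tyrosines for phenylalanine in this adaptor. Neither strain nor age nor the number of animals is stated. Because no separate RNA extracts are named for the arrays, the pair was counted as 1 replicate, and no test of the mutant against wildtype was possible. An SD below covers the 2 arrays and technical error only.

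Values are log ratios of the channels, read as log10 because the base is not stated. The ratio of the - polarity array was multiplied by -1 before averaging, so that a sign stands for the same population on both arrays. The labels do not settle which sign belongs to LAT3YF cells. The sides are therefore called positive and negative, and every statement can be read with the populations exchanged. Ratios show differences between the populations and not levels, so the cell type on the labels could not be checked against marker levels. As a description, Cd5 was at 0.614 ± 0.0077, Cd3e at 0.110 ± 0.10 and Lat at 0.179 ± 0.010.

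Class II molecules are heterodimers of an alpha and a beta chain that carry peptides from the endosomal route to CD4 T cells. The invariant chain, encoded by Cd74, escorts new dimers and blocks their groove, DM exchanges its remnant for peptide, and DO restrains DM. In the spleen the set is made mainly by B cells, dendritic cells and macrophages, and mouse T cells make little or none of it. Ciita encodes the coactivator that switches the set on through a shared promoter module of X and Y boxes.

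All 9 measured genes lay on the negative side on both arrays, with means from -0.385 for H2-DMb1 to -0.125 for H2-DMb2. Their median was -0.303 (2.01-fold), beside 0.0023 over all 4331 genes. A gene was called when its mean was at least 2-fold (0.301 on the log10 scale) with the same turned sign on both arrays, which is a rule of size and no test. By this rule 5 of the 9 were called negative and 0 positive, beside 5.03% of all genes called negative and 3.72% called positive. The 5 were H2-DMb1, H2-Ob, H2-Eb1, H2-Aa and Cd74. Being below 0 on both arrays was met by 29.3% of all genes. The probes are not independent replicates, and the 9 values come from the same RNA.

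The promoter stretches of the class II genes on chromosome 17 are shown for 6 of the 8 members there, as a description. H2-DMa, also on the negative side, is left out. Its Y box began 198 bases before the start and its stretch had only 72 bases inside the window. The promoter of H2-Ab1 was not analysed here. The H2 members lie in the order H2-Oa, H2-DMa, H2-DMb2, H2-DMb1, H2-Ob, H2-Ab1, H2-Aa and H2-Eb1 along that chromosome in the RefSeq annotation. RefSeq promoter windows (GRCm38.p6, 250 bases before a start site to 50 from it on) were used for 7 members, with 8 windows because H2-DMa had more than 1. Both strands were searched for the Y box (ATTGG), the X2 box (TGACG) and a form of the X1 box, namely the letters G, AAC, G and TG with 1 free base between each and the next. Each line gives 80 bases in the direction of transcription, from 60 before the Y box to 15 past it, and capitals mark every match. The stretches are chr17:34287852-34287931 on the minus strand for H2-Aa, and on the plus strand chr17:34305748-34305827 for H2-Eb1, chr17:34153070-34153149 for H2-DMb1, chr17:34145099-34145178 for H2-DMb2, chr17:34092276-34092355 for H2-Oa and chr17:34238788-34238867 for H2-Ob.
H2-Aa: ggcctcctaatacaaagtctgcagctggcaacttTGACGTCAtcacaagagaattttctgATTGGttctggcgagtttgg
H2-Eb1: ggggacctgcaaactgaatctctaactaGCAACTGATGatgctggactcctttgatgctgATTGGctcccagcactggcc
H2-DMb1: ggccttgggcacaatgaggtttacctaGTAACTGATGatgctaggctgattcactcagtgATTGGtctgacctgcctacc
H2-DMb2: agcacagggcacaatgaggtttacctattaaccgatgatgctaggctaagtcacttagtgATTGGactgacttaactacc
H2-Oa: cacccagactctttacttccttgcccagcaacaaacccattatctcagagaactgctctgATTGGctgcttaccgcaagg
H2-Ob: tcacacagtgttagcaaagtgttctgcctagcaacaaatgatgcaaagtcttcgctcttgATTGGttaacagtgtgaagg

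A Y box was found in 7 of the 8 windows, in the sense direction in each and in H2-Eb1 on the other strand as well, beside 37.4% of all 32851 RefSeq windows with a match on either strand and 22.1% with a sense match. In the 6 stretches above it began between 43 (H2-Oa) and 90 (H2-DMb2) bases before the start site. The windows of H2-DMa held 1 match, 198 bases before the start, and that window is not shown. The X1 letters matched in H2-Eb1 and H2-DMb1, 2 of 8 windows beside 3.54% of all, beginning 91 and 94 bases before the start. The X2 letters matched only in H2-Aa among the members (1 of 8 windows, beside 20.8% of all), where the sense and antisense matches overlap. A match is a description of letters and not a binding site. The stretches of H2-DMb1 and H2-DMb2 had the same base at 67 of 80 positions (83.8%) without gaps. The mean ratios of these genes were the lowest and the highest of the members.

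**Figure D1:**
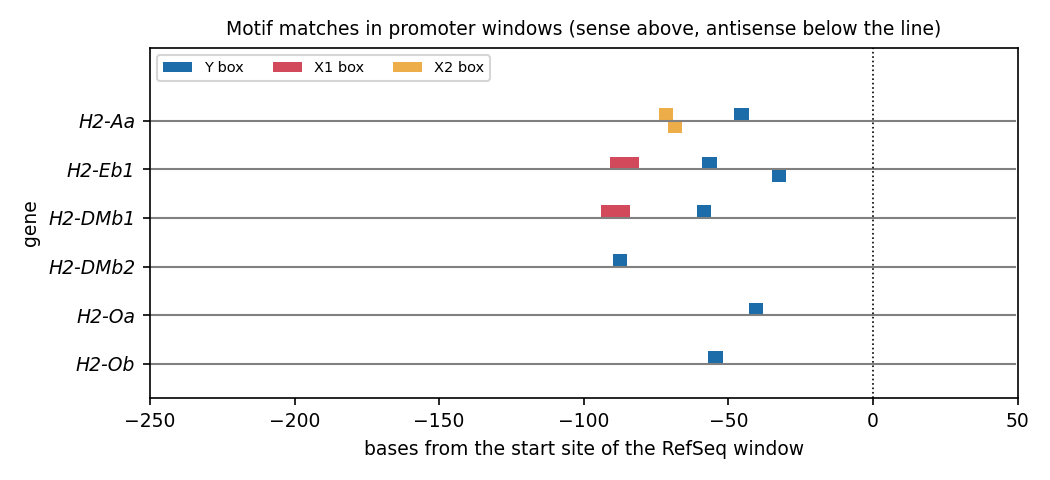
Motif matches in the promoter windows of 6 class II genes, with bases from the start site of the RefSeq window on the horizontal axis and genes down the page; sense matches are drawn above each line and antisense matches below it. The sense Y box begins between 90 and 43 bases before the start in all 6, and X1 matches are drawn for H2-Eb1 and H2-DMb1 alone among these 6 genes. H2-DMa is not drawn, and its Y box began outside that range, 198 bases before the start.

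The classical chains present peptide at the cell surface. H2-Aa, the alpha chain of I-A, had log10 ratios of -0.258 (+ polarity array) and -0.381 (turned - polarity array), with a mean of -0.319 ± 0.087 (2.09-fold). Its partner H2-Ab1, the I-A beta chain, had -0.264 and -0.281 on the same arrays, with a mean of -0.272 ± 0.012 (1.87-fold), and was not called. The difference H2-Aa minus H2-Ab1 was -0.047 ± 0.075, smaller than its spread between the arrays, although the rule called the first chain and not its partner. H2-Eb1, the beta chain of I-E, was past 2-fold on each array, at -0.322 and -0.340, with a mean of -0.331 ± 0.013 (2.14-fold). The ratio of H2-Ea, the alpha chain that pairs with H2-Eb1 and no member of the set, had opposite signs on the arrays (-0.136 and 0.0856, mean -0.025 ± 0.16). Mice of the b haplotype carry a deletion at H2-Ea and make no I-E, and the haplotype of these mice is not given.

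The invariant chain stood at the threshold. Cd74, on chromosome 18, had -0.276 on the + polarity array and -0.331 on the turned - polarity array, with a mean of -0.303 ± 0.039 (2.01-fold). It lay just inside the 2-fold limit and H2-Ab1 just outside it. The distance between them was smaller than the SD of Cd74 itself.

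The peptide exchange factor DM and its antagonist DO gave the widest range. H2-DMb1, a DM beta chain, had -0.378 and -0.392, with a mean of -0.385 ± 0.0098 (2.43-fold), the lowest of the 9. H2-DMa, the DM alpha chain, had -0.170 and -0.147, with a mean of -0.158 ± 0.016 (1.44-fold), and H2-DMb2, the other beta chain gene, had -0.101 and -0.149, with a mean of -0.125 ± 0.034 (1.33-fold). H2-DMb1 and H2-Eb1 were the only members past 2-fold on both arrays taken singly, while neither H2-DMa nor H2-DMb2 reached 1.5-fold on either array.

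H2-DMb1 had a lower ratio than the other DM chains on both arrays. H2-DMb1 minus H2-DMb2 was -0.277 on the + polarity array and -0.243 on the turned - polarity array, with a mean of -0.260 ± 0.024 (a 1.82-fold difference in ratio). H2-DMa minus H2-DMb1 was 0.227 ± 0.026, and H2-DMa minus H2-DMb2 was -0.033 ± 0.050, less than its spread. The beta chain genes are neighbouring relatives, so their probes may share signal, and the extent of this was not tested.

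DO is found mainly in B cells and some dendritic cells. H2-Oa, its alpha chain, had -0.264 on the + polarity array and -0.185 on the turned - polarity array, with a mean of -0.224 ± 0.056 (1.68-fold). H2-Ob, its beta chain, had -0.174 and -0.569, with a mean of -0.372 ± 0.28 (2.35-fold). The call of H2-Ob rested on the - polarity array, since it was 1.49-fold on the other. H2-Oa minus H2-Ob was 0.147 ± 0.34, less than its spread between the arrays.

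**Figure D2:**
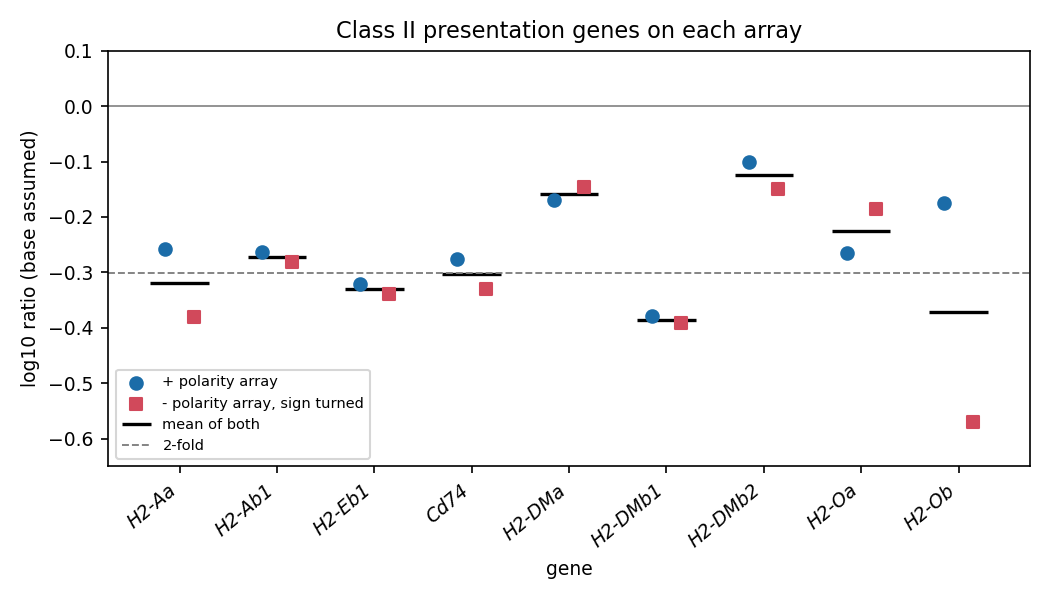
Log10 ratio (base assumed) of each of the 9 class II presentation genes on the + polarity array (circles) and on the - polarity array after turning its sign (squares), with the mean of both as a bar and 2-fold as a dashed line. All 18 points lie below 0, and the points of H2-Ob lie farthest apart (-0.174 and -0.569).

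The arrays differed in how many members they placed past 2-fold. The + polarity array alone gave 2 of 9 on the negative side, beside 5.17% of all genes, and the - polarity array alone gave 5 of 9, beside 10.1%. The same 2 genes remained when each array had to pass on its own, beside 3.60% of all genes. At a mean of 1.5-fold, 7 of the 9 were called negative, beside 9.44% of all genes, and at 3-fold 0 were called, beside 2.22%. The ratio was larger in size on the - polarity array for 7 members and smaller for H2-Oa and H2-DMa. The SD between the arrays was between 0.0098 and 0.087 for the 8 members other than H2-Ob, with a median over all 9 of 0.034, beside 0.058 over all genes. The members ranked from 156 to 700 from the lowest mean among the 4331 genes, and 545 genes (12.6%) had a mean within their range.

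**Figure D3:**
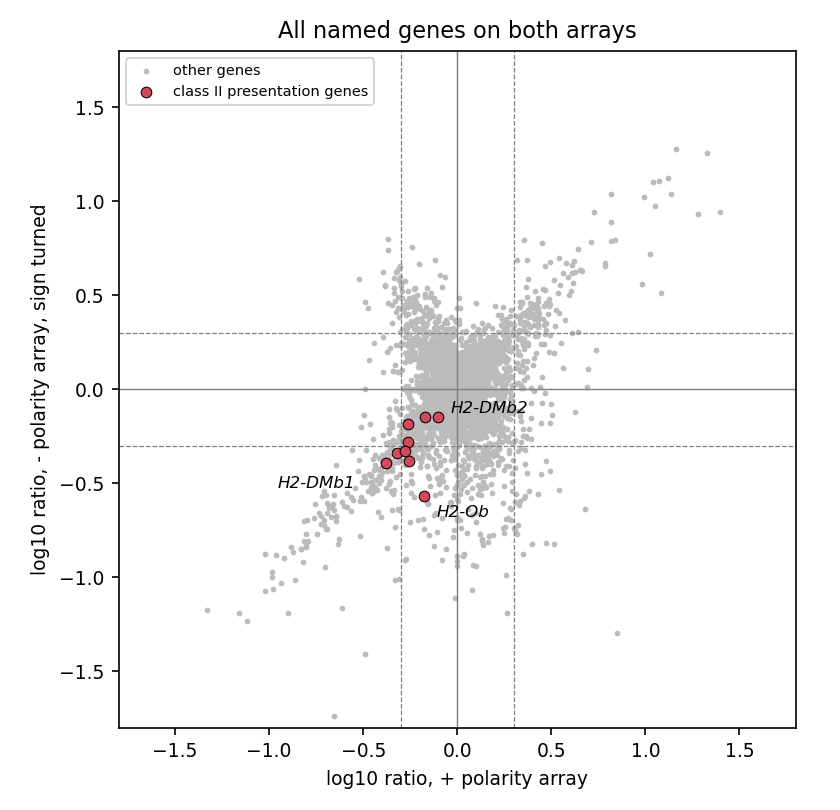
Log10 ratio of every named gene on the + polarity array (horizontal) and on the sign-turned - polarity array (vertical), with the 9 class II presentation genes in red and dashed lines at 2-fold. The members sit together in the lower left, with H2-Ob displaced downwards by its - polarity value of -0.569, while genes with far larger ratios lie beyond them along the diagonal.

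Genes of class II peptide loading and turnover other than the members were mixed. Of 8 measured, 2 were called negative and 1 positive, beside 5.03% and 3.72% of all genes. The mean was below 0 for 7, beside 48.8% of all genes, and the list median was -0.151. The called genes were the cathepsins Ctsl (-0.571 ± 0.022) and Ctsh (-0.535 ± 0.16) on the negative side and Ctse (0.721 ± 0.091), an aspartic protease, on the positive side. Ctss, the protease that trims the invariant chain in B cells and dendritic cells, was at -0.289 ± 0.030 and not called. These proteases also serve general lysosomal turnover.

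Most measured regulators of class II transcription were not called. Of 8 genes, the rule called 2 positive and 0 negative, beside 3.72% and 5.03% of all genes. Means were above 0 for 6, beside 51.2% of all genes, with a median of 0.0976. The signs of Nfyc (0.0109 ± 0.11), a mean above 0, and of Creb1 (-0.133 ± 0.30), a mean below 0, differed between the arrays. Those called were Irf4 (0.443 ± 0.059), a factor of activated lymphocytes, and Prdm1 (0.404 ± 0.088), which encodes Blimp-1, known to repress Ciita in plasma cells. Nfya, a subunit of the factor that binds the Y box, was at 0.272 ± 0.058 and not called. Spi1, the myeloid and B cell factor PU.1, was at -0.256 ± 0.089 and also not called.

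The list of class I presentation holds MHC genes and genes encoded elsewhere, such as B2m, Calr and Tapbpl. Of 26 measured genes, 24 means were above 0, beside 51.2% of all genes, and the median was 0.0862 (1.22-fold). The signs of H2-K1, B2m and Tapbp, with means above 0, differed between the arrays. The rule called 0 positive and 1, Cd1d1 (-0.431 ± 0.10), negative, beside 3.72% and 5.03% of all genes. Cd1d1, also encoded outside the MHC, gives a lipid-presenting molecule. The largest positive ratios were those of the chaperone gene Calr (0.220 ± 0.050) and the immunoproteasome gene Psmb9 (0.193 ± 0.011), both below the threshold. Apart from Cd1d1 the lowest class I value was -0.0412 (Tapbpl), above the highest class II member at -0.125. H2-Ea, a class II chain that is no member, lay at -0.025 ± 0.16, above that Tapbpl value. Class I heavy chain genes are close relatives and their probes may share signal. The members were chosen with these results known, so the separation is given as a description.

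Interferon gamma induces class II in many cells. Of 16 measured genes of its axis, 2 were called negative, Irf8 (-0.457 ± 0.0044) and the receptor chain Ifngr1 (-0.380 ± 0.020), and 1 positive, the feedback inhibitor Socs1 (0.348 ± 0.00064), with a median of -0.0562. Ifng itself was at -0.0592 ± 0.047 and Irf1 at 0.0703 ± 0.074, and neither was called. Of 9 costimulatory ligands, Cd86 (-0.392 ± 0.033) was called negative and Tnfsf13b (0.928 ± 0.15) and Tnfsf9 (0.402 ± 0.0027) positive, with a median of 0.0302. The calls of both lists stand beside 5.03% of all genes called negative and 3.72% called positive.

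Most markers of cells that make class II had means below 0, with some above 0, and most B cell and dendritic cell markers were not called. Over all genes the rule called 5.03% negative and 3.72% positive, and 48.8% had a mean below 0. Of 19 B cell markers, the rule called 5 negative and 1 positive, the median being -0.229, with values from -0.719 to 0.405 and 17 means below 0. The negative ones were Ighm (-0.719 ± 0.031), Cd24a, Cd72, Blnk and Cd79b, and the positive one was Cxcr5, which T cells also make. Of the 13 not called, Ms4a1 was at -0.174 ± 0.022, Pax5 at -0.0184 ± 0.033, and Cd22, a B cell receptor inhibitor, was above 0 on both arrays at 0.193 ± 0.024. Of 13 dendritic cell markers, the rule called 5 negative and 0 positive, the median being -0.243, with values from -0.649 to 0.0402 and 10 means below 0. They were Itgax (-0.649 ± 0.0097), Ccr7, Irf8, Cd1d1 and Tcf4, of which Irf8 and Cd1d1 also stand in lists above, and T cells make Ccr7 too. The call of Tcf4 rested on the - polarity array, at -0.564 after turning, since it was at -0.119 on the + polarity array. The other 8 dendritic cell markers were not called, and Xcr1 (0.0402 ± 0.11), Zbtb46 (0.0225 ± 0.024) and Ccl17 (0.0081 ± 0.10) had means above 0. Only Zbtb46 of these was above 0 on both arrays. The signs of Xcr1 and Ccl17 differed between the arrays, as did those of Clec10a and Ccl22, whose means were below 0.

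Macrophage and monocyte markers had the larger ratios. Of 17 measured, 14 were called negative and 1, Ccr2 (0.315 ± 0.052), positive, beside 5.03% and 3.72% of all genes. The list median was -0.817 (6.56-fold), with values from -1.17 to 0.315. Those called negative were Slc40a1, Adgre1, Vcam1, Mrc1, Cd14, Spic, Ly6c1, Fcgr1, C1qc, C1qa, C1qb, Tyrobp, Marco and Fcgr3. The 2 not called were Lyz1 (-0.215 ± 0.057) and Itgam (-0.022 ± 0.012). The median of this list was farther from 0 than the mean of any class II member. Of 12 T cell markers, Cd5 and Cd6 (0.402 ± 0.079) were called positive and 0 negative, beside 3.72% and 5.03% of all genes. Means were above 0 for 10 of the 12, with Cd2 at 0.205 ± 0.0086 and a list median of 0.123. The 2 below 0, on both arrays, were Cd247 (-0.185 ± 0.13) and Cd3d (-0.0074 ± 0.0063). Fewer cells of a type and less RNA per cell cannot be told apart in RNA from a sorted population. The part of B cells, dendritic cells or macrophages in the class II ratios was not tested, and no level was available to say which of their markers were near background.

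**Figure D4:**
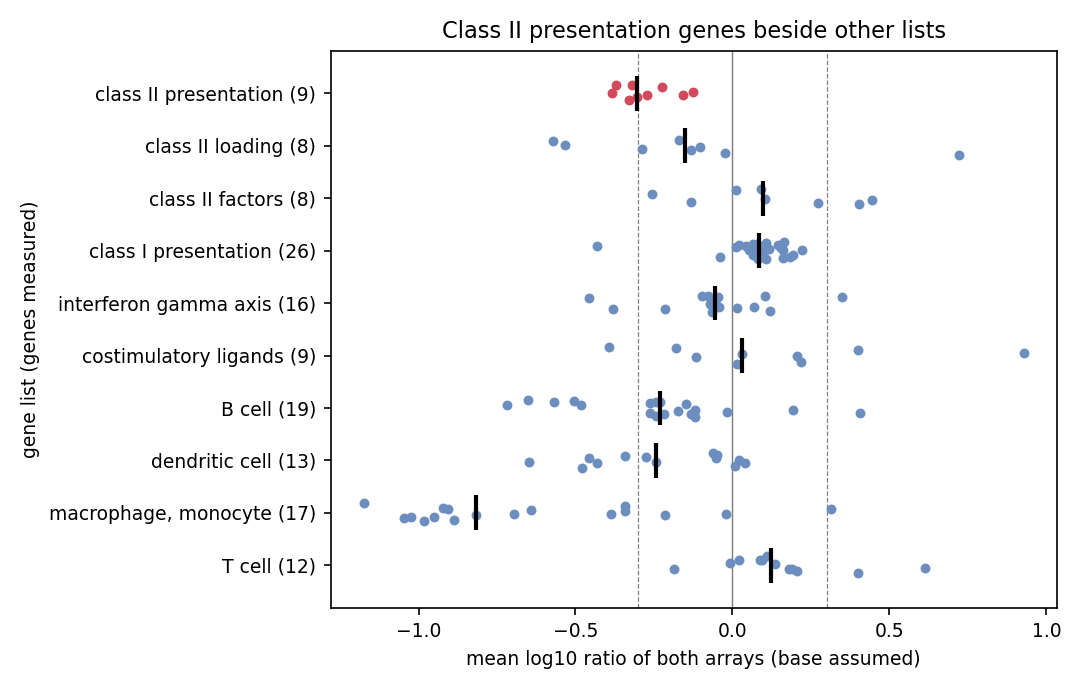
Mean log10 ratio of both arrays (base assumed) for each measured gene of 10 lists, with the class II presentation genes in red, the median of each list as a black bar and dashed lines at 2-fold. The medians of the class II genes (-0.303) and of the B cell (-0.229), dendritic cell (-0.243) and macrophage (-0.817) markers are below 0, with single markers above 0 in each marker list, while class I (0.0862) and T cell (0.123) genes have medians on the other side of 0.

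The genes nearest to the members' median point over the 2 arrays were Tfr2 (-0.301 ± 0.056), Crlf3 (-0.299 ± 0.037), Zfp995 (-0.286 ± 0.035), Id1 (-0.283 ± 0.043) and Kit (-0.298 ± 0.070), at distances from 0.0105 to 0.0227 on the log10 scale. Nearness over so few arrays is weak, since 439 genes lay as close to that point as the farthest member.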

How the data were processed

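The submitters' deposited table gives each probe of each array 1 log ratio between the channels, computed by the authors. Per the labels these are ratio profiles with no base given, and the deposited values were read as log10, which is an assumption. No source used here names the scanner, the normalization or which channel is the numerator, and intensities were not analysed here, so the number of arrays limits the precision. Deposited medians were -0.00284 (+ polarity) and 0.00101 (- polarity), and the columns correlated at r = -0.301 across probes. The - polarity array was turned and the arrays averaged. Of 8014 probes, 4654 had 1 gene, 73 several and 3287 none listed in the platform annotation, and 4640 of the single-gene probes matched RefSeq by gene ID. Genes were means over single-gene probes, and each of the 9 members had 1 probe. Members and lists were chosen with earlier results of these data known. Genes named were the members, the called genes of each list (or the 3 largest where fewer than 3 were called), the 5 nearest genes, Cd3e, Cd5 and Lat. H2-Ea, Ctss, Spi1, Tapbpl, Ifng, Irf1, Nfyc, Ms4a1, Pax5, Cd22, Xcr1, Ccl17 and Zbtb46 were chosen outside this rule, after their values were seen. So were Creb1, Cd247, Cd3d, Lyz1, Itgam, Clec10a, Ccl22, H2-K1, B2m and Tapbp. Python 3.11.15, pandas 2.3.3 and numpy 2.4.6 were used. Alternatives were other thresholds, single arrays, centring, scaling, log bases and probe rules.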

Additional observations from a re-analysis of the deposited data

How the results depend on the processing

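All 9 members kept a negative mean under the alternatives run. For most alternatives this was fixed in advance, since a threshold, log base or scaling cannot turn a sign. The other probe rules could not change the members, because each had 1 probe and 0 probes of several genes held a member. The count of 5 members called negative fell to 2 with the + polarity array alone or with each array past the threshold. It fell to 0 at 3-fold, with values read as log2 or with values read as natural log. With the - polarity array alone, centring or scaling it was 5, and under the other probe rules it was 5 by construction. With the + polarity array alone the members' median was -0.264. Read as log2 or as natural log, that median would be -0.0913 or -0.132 on the log10 scale, by the construction of those readings. Over all genes, the negative and positive calls were 218 and 161. They were 409 and 365 at 1.5-fold, 96 and 48 at 3-fold, 7 and 10 read as log2, 40 and 22 read as natural log, and 436 and 306 with the - polarity array alone. The cause of the difference between single arrays was not tested. No paired analysis was possible because the arrays hold 1 dye-reversed pair and no test was run. No signal over background was available to set a detection limit.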
